A study of Mus musculus with 14 samples.

Results

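The vehicle fetuses are the water-injected control animals of a study of a microRNA given to mouse zygotes, and are described here as a reference map of gene expression in the whole mouse fetus at gestational day 12.5. They were chosen by their labels alone: of 14 libraries in the series, the 9 labelled vehicle were taken, 4 from males and 5 from females, and the 5 let-7f libraries were left aside. All 9 were wild-type F1 fetuses of the cross C57BL/6Jx129S1/SvlmJ. As zygotes they had been microinjected with nuclease-free water, cultured in KSOM medium and transferred to CD1 pseudo-pregnant recipients, so that injection, culture and transfer are shared by every fetus. RNA was extracted from each whole fetus with Trizol, selected for poly-A tails and sequenced as a stranded TruSeq library. The labels do not record which fetuses were littermates, so the spread given below is that between these 9 fetuses and may include shared dams.

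At this stage the mouse embryo is in organogenesis. The heart beats and the neural tube is making neurons, the liver has just become the main site of blood formation, cartilage models of the bones are condensing, and the gonads are beginning to differ between the sexes. Lung, pancreas, kidney and thymus are present as young buds or rudiments. Red cells of the embryonic lineage, made in the yolk sac, circulate beside the first red cells from the fetal liver, and their globins differ in part.

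Between 32844289 reads in female 1 and 39561496 in female 2 were recovered per library, and between 18027 and 18068 of 18132 named genes had at least 1 read. Some libraries stood apart. Female 2 had few liver transcripts, male 1 was alone in its high placental and yolk sac transcripts, and male 2 held the highest value of 30.4% and the lowest value of 30.5% of the 17356 genes with a mean value of at least 10. Ribosomal protein genes took 9.67% of the reads in male 2, 7.12% in female 1, 5.74% in female 4 and 5.49% in female 5, against 4.15% to 4.38% in the other 5. Values without 1 or all of male 1, male 2, female 1 and female 2 are given below beside many of the results that rest on them.

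Levels of different genes were compared per kilobase of annotated transcript, scaled to the same total in each library as in TPM values, and are given in TPM. Values of 1 gene across fetuses are the deposited normalized values, with no length correction. The length of a gene was the median over its protein-coding transcripts. With the longest transcript in its place the level of the median gene was 1.46-fold higher, with 10th and 90th percentiles of 0.561 and 1.74, and the longest-transcript level is given below beside levels for which it was more than 1.5-fold lower. Length was known for 17427 genes.

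The transcript pool of the vehicle fetuses was broad. A mean level of at least 1 TPM was reached by 14627 genes, at least 10 by 9712, at least 100 by 1919 and at least 1000 by 122. The 20 most abundant genes made up 10.9% of all transcripts, the 100 most abundant 24.5% and the 1000 most abundant 57.5%. The highest level was that of Hba-a1, an adult alpha globin, at 14064 ± 7401 TPM (SD, n = 9), followed by Eef1a1, which carries aminoacyl-tRNA to the ribosome, at 13854 ± 642. Hbb-bs, an adult beta globin, stood at 9237 ± 7057 and Hbb-y, an embryonic beta globin, at 7391 ± 2171. Of the 20 most abundant genes, 5 were globins (Hba-a1, Hba-a2, Hbb-bs, Hbb-bt and Hbb-y) and 4 were ribosomal protein genes (Rps24, Rpl41, Rpl13a and Rps14). The rest served protein synthesis and folding (Eef1a1, Eif4g2, Hsp90ab1), the cytoskeleton (Actb, Actg1, Tuba1a), glycolysis (Pkm, Gapdh), chromatin (Ptma), the extracellular matrix (Col3a1) or mitochondrial translation (Lars2). With the longest transcripts, 10 of the 20 were again among the 20 most abundant. Those more than 1.5-fold lower with the longest transcript were Hsp90ab1, at 6527 TPM against 2763, Pkm, at 3848 against 1996, Gapdh, at 3094 against 1757, Col3a1, at 4178 TPM against 962 with the longest transcript, Lars2, at 7538 against 2399, Rps24, at 5168 against 1147, and Eif4g2, at 3077 against 504.

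Organ systems were described through 39 lists of textbook marker genes, with 481 distinct genes. Of these, 431 were in the table, 12 of them with a mean value under 10, and 50 were not analysed here. Among the 12 low genes were Gfi1, Cd3e, Elane, Myf6, Bglap, Pdx1, Nr0b1, Insl3, Sycp3, Prl2c2 and Ascl2. In a whole fetus, fewer cells of a type and less RNA per cell cannot be told apart. By the median level of their members the lists ran over more than 4 orders of magnitude. Adult globins were highest with a median of 6510 TPM, then embryonic globins with 2549 and genes of translation and the cytoskeleton with 2506. Proliferation genes followed with 113, neuronal genes with 104 and connective tissue genes with 103, then heart genes with 46.2 and erythroid genes with 33.0. At the low end, the list for pituitary, thyroid and thymus had a median of 0.736, that for the inner ear 0.726 and that for lymphoid cells and granulocytes 0.516.

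**Figure D1:**
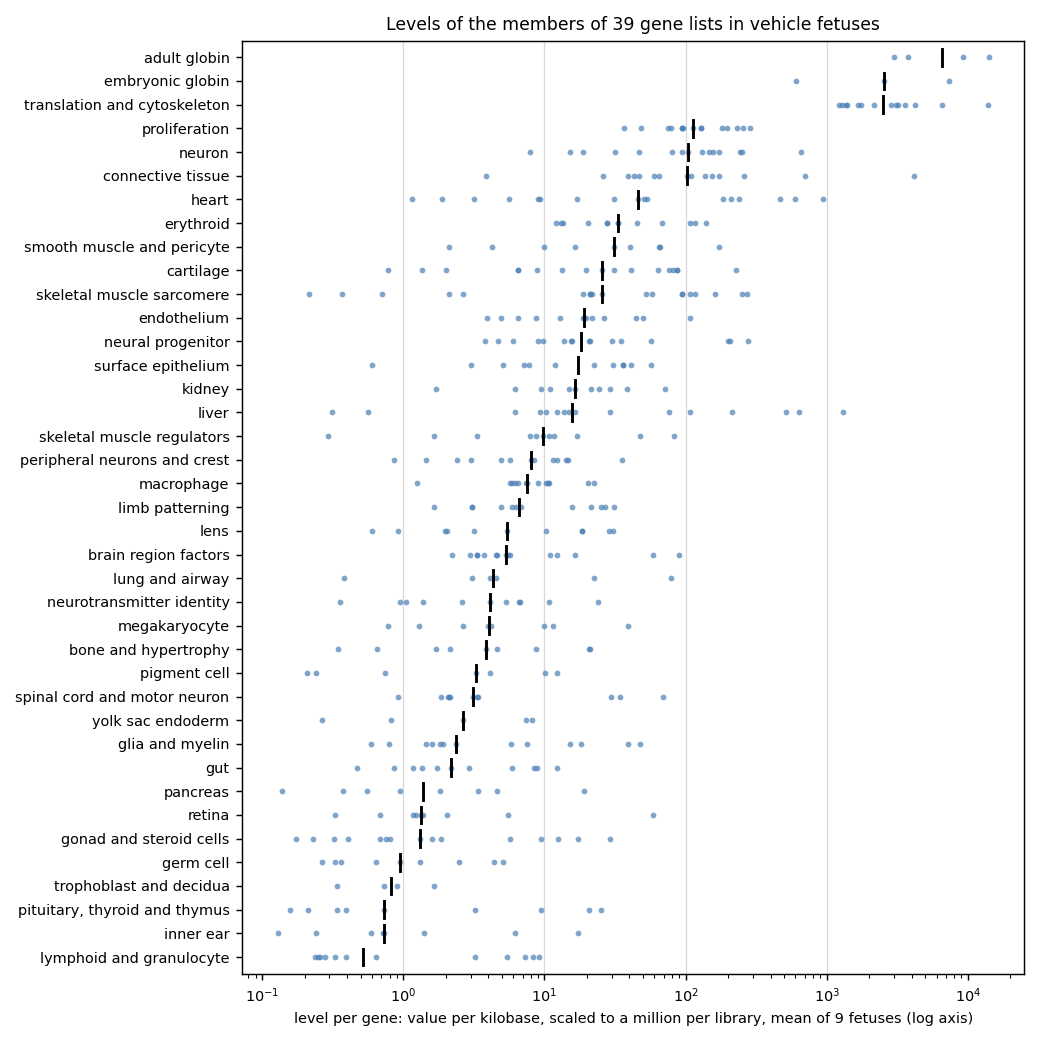
Level of each member of the 39 gene lists (points; value per kilobase of transcript, in TPM, mean of 9 vehicle fetuses, log axis), with the median of each list as a black bar. The globin lists and the list for translation and cytoskeleton lie above 1000 TPM except for Hbb-bh1, at 607 TPM, and most lists span at least 1 order of magnitude.

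Blood gave the most abundant organ-specific transcripts, and the balance of its globins varied more than most of the transcriptome. Hemoglobin is switched during development: Hba-x, Hbb-y and Hbb-bh1 are genes of embryonic red cells. Red cells of the fetal liver use Hba-a1 and Hba-a2 with Hbb-bs and Hbb-bt. A lineage may use genes of both kinds, so the embryonic shares below are not shares of red cell lineages. The start regions of an embryonic and an adult gene of each cluster are shown because the balance between them differed most between fetuses of all pairs examined. Each is the 120 bases before the annotated start, on the gene's strand, from RefSeq on build GRCm38.p6. Hba-x lies at chr11:32276480-32276599 and Hba-a1 at chr11:32283552-32283671, both on the plus strand. Hbb-y lies at chr7:103853208-103853327 and Hbb-bs at chr7:103827929-103828048, both on the minus strand. Capitals mark matches on either strand to the TATA box core (TATAA), the CCAAT box (CCAAT), the box bound by KLF factors (CACCC), the GATA factor motif (GATAA) or a core motif of the liver factor HNF1 (GTTAAT).
Hba-x: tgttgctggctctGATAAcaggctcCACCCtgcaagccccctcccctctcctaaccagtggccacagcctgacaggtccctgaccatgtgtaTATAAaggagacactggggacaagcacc
Hba-a1: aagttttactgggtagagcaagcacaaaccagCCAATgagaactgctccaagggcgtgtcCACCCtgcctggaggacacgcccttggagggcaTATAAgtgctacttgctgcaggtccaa
Hbb-y: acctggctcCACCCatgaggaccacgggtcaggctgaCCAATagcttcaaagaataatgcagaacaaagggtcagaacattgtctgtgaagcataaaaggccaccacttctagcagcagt
Hbb-bs: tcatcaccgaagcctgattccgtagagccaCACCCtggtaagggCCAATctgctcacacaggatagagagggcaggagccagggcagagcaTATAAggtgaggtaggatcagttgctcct

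All 4 globin windows held a CACCC match, which 31.7% of 32851 RefSeq promoter windows of the same length held. A CCAAT match was found in Hba-a1, Hbb-y and Hbb-bs (21.3% of all windows), a TATAA match in Hba-x, Hba-a1 and Hbb-bs (11.8%) and a GATAA match in Hba-x (10.5%). None held GTTAAT (2.995% of all windows), and no match overlapped another. These are matches of letters and not shown sites of binding.

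The adult alpha globin Hba-a1 had values of 155680, 506085, 167326 and 185352 in males 1 to 4, and 422162, 47648, 216659, 301716 and 106529 in females 1 to 5. The adult beta globin Hbb-bs had 88081, 314066, 84338 and 96430 in males 1 to 4, and 246539, 5329, 42454, 136652 and 30802 in females 1 to 5. Both were highest in male 2 and female 1 and lowest in females 2 and 5, and the range of Hbb-bs was 58.9-fold and that of Hba-a1 10.6-fold. Without female 2 the ranges were 10.2-fold and 4.75-fold, and without males 1 and 2 and females 1 and 2 they were 4.44-fold and 2.83-fold. Hba-a1 and Hba-a2 are near-identical copies, as are Hbb-bs and Hbb-bt, so reads may be divided between the copies.

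The embryonic alpha globin Hba-x had values of 26456, 30916, 15664 and 22835 in males 1 to 4, and 31116, 33882, 82913, 45329 and 70046 in females 1 to 5. The embryonic beta globin Hbb-bh1 had 4226, 5797, 2354 and 4501 in the males, and 5097, 8314, 15520, 8721 and 21452 in the females. Hbb-y had 88440, 135341, 64954 and 83542 in the males, and 132483, 56092, 155730, 121343 and 132641 in the females. Hba-x and Hbb-bh1 were highest in females 3 and 5 and lowest in male 3, whereas Hbb-y was lowest in female 2 and varied least of the 7 globin genes, 2.78-fold.

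Embryonic genes made up 12.6%, 4.78%, 7.56% and 9.22% of the alpha globin level in males 1 to 4, and 5.66%, 37.7%, 24.6%, 11.1% and 36.0% in females 1 to 5. For beta globin the embryonic share was 37.7%, 20.5%, 31.5% and 33.7% in the males, and 25.6%, 86.7%, 69.3%, 35.4% and 73.6% in the females. For both chains females 2, 5 and 3 had the 3 highest shares, male 1 came next, and male 2 and female 1 had the 2 lowest. The embryonic share was larger for beta than for alpha globin in every fetus, although the share is a ratio of per-length levels and its size depends on the lengths used. With the longest transcripts its mean was 14.8% for alpha and 48.6% for beta globin. Without males 1 and 2 and females 1 and 2, the alpha share still ran between 7.56% and 36.0% and the beta share between 31.5% and 73.6% over the 5 fetuses.

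**Figure D2:**
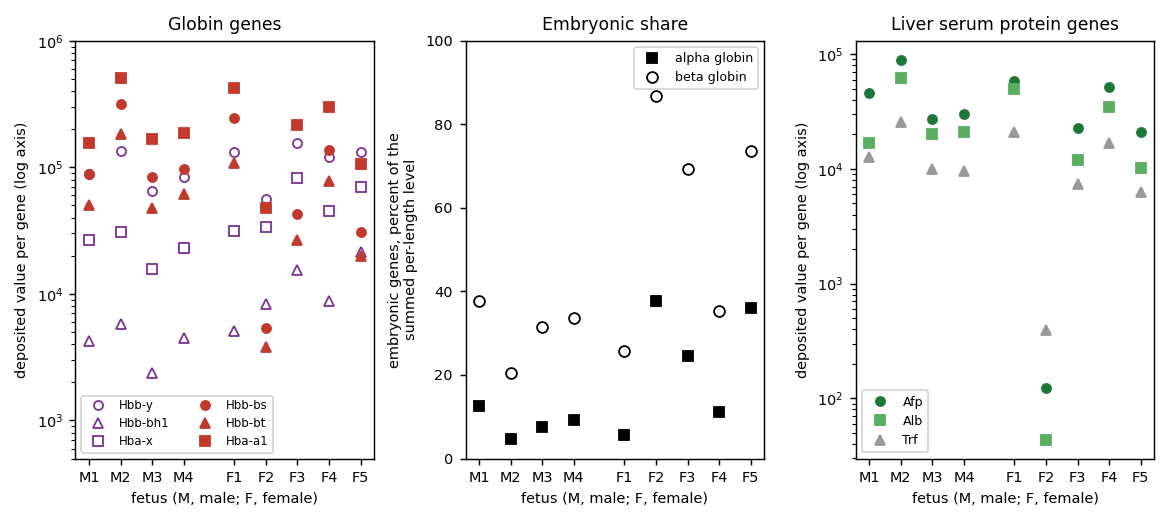
Left, deposited values of 3 embryonic (open purple) and 3 adult (filled red) globin genes in each vehicle fetus (log axis); middle, embryonic genes as a percent of the summed per-length globin level; right, deposited values of the liver genes Afp, Alb and Trf (log axis). Females 2, 3 and 5 have the highest embryonic shares of both chains, up to 86.7% for beta globin in female 2, and female 2 is far below the other fetuses in all 3 liver genes.

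The machinery of red cell formation was expressed in every fetus and lowest in female 2. All 14 erythroid genes had their lowest value in female 2, which held the lowest value of 11.7% of all genes. Alas2, the enzyme that opens heme synthesis in red cells, had 3803, 10635, 3745 and 3731 in males 1 to 4, and 8870, 1314, 3763, 6575 and 2888 in females 1 to 5. Slc4a1, the anion exchanger of the red cell membrane, had 12972, 10680, 15551 and 17810 in the males, and 13638, 6700, 25031, 16807 and 8709 in the females. Ahsp, a chaperone of free alpha globin, varied most of the list, with 1205, 2923, 968 and 1063 in the males and 2421, 131, 808, 1698 and 693 in the females. Alas2 and Ahsp followed the adult globins, highest in male 2 and female 1, while Slc4a1 was highest in female 3. The 13 members with a known length, all but Ahsp, took 0.0657% ± 0.0172 of transcripts (SD, n = 9). The median SD of the 14 genes, 0.56 on the log2 scale, was 0.32 without female 2. Tfrc, the transferrin receptor through which red cell precursors take up iron, reached 116 ± 27.9 TPM (76.7 with the longest transcript).

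Other blood lineages were far less abundant. Of 8 megakaryocyte genes 7 were lowest in female 2, and the platelet chemokine gene Pf4 ran between 162 in female 2 and 881 in male 2. All 13 macrophage genes lay above 1 TPM, led by C1qb, a complement component, at 22.6 ± 6.87 and Csf1r, the macrophage growth factor receptor, at 20.3 ± 5.59 TPM. C1qb still led with the longest transcripts, but C1qa and C1qc then stood above Csf1r. Of 13 lymphoid and granulocyte genes 12 were in the table, 10 passed the filter on low values and 5 reached 1 TPM. These 5 included the granulocyte genes Mpo, at 9.13 ± 4.73, S100a9, at 8.26 ± 6.05, and S100a8, at 7.23 ± 4.94 TPM. S100a9 had 50.9, 191, 161 and 74.6 in males 1 to 4, and 247, 7.88, 60.4, 72.7 and 42.2 in females 1 to 5, so that it too was lowest in female 2. Cd3e, a T cell receptor subunit, and Elane, neutrophil elastase, fell under the filter.

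The liver list varied most between vehicle fetuses. The fetal liver secretes serum proteins while it houses blood formation, and Afp, alpha-fetoprotein, and Alb, albumin, are its classical early and later products, encoded side by side. Their start regions are shown because both genes were by far lowest in the same fetus. The window of Afp is chr5:90490594-90490713 and that of Alb chr5:90460750-90460869, both on the plus strand.
Afp: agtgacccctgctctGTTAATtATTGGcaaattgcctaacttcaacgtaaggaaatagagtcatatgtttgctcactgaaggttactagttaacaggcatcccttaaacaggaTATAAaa
Alb: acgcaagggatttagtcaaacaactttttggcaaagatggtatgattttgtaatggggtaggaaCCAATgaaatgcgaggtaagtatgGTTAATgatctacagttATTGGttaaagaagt

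The windows of Afp and Alb each held 1 GTTAAT match, and neither held a KLF or GATA factor motif. The reverse of the CCAAT box was found once in each. Alb also held CCAAT itself, at position -56 from the annotated start, and Afp held TATAA at position -7.

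Afp had values of 45773, 89517, 27074 and 29978 in males 1 to 4, and 58798, 123, 22590, 51321 and 20966 in females 1 to 5. Alb had 16913, 61427, 20206 and 20859 in the males, and 50229, 43.8, 11874, 34806 and 10269 in the females. Trf, the iron carrier transferrin, had 12776, 25747, 10020 and 9594 in the males, and 20792, 396, 7400, 16937 and 6331 in the females. Female 2 lay below every other fetus by more than 10-fold in all 3, and male 2 and female 1 were the 2 highest. Of 16 liver genes in the table, 15 were lowest in female 2, 12 were highest in male 2, and in 11 females 2, 3 and 5 were the 3 lowest, an arrangement seen in 4.55% of all genes. The liver list made up between 0.00805% of transcripts in female 2 and 0.562% in male 2. Its median SD of 2.36 was 0.73 without female 2 and 0.59 without males 1 and 2 and females 1 and 2. Afp made up 73.7% ± 5.77 of the summed per-length level of Afp and Alb, and 62.8% with the longest transcripts. Its share was 82.2% in female 2 and 81.7% in male 1, the 2 highest, and 65.9% in female 1, the lowest. Male 1 was also the fetus with high yolk sac transcripts, and their part in its Afp share was not tested. Of the 21 liver genes 5 mature-liver genes (Cyp3a11, Cyp2e1, G6pc, Pck1 and Tat) were not analysed here.

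The other endodermal organs contributed little to the pool. Gut genes took 0.00460% ± 0.000382 of transcripts, led by Barx1, a factor of the stomach mesenchyme, at 12.2 ± 2.44 TPM. Fabp1, a fatty acid carrier of gut and liver, had 62.6, 273, 98.3 and 74.6 in males 1 to 4, and 234, 0.875, 99.8, 169 and 51.7 in females 1 to 5, which in female 2 is the value of 1 read. Lung and airway was led by Foxp2, at 79.1 ± 21.4 TPM (28.2 with the longest transcript), a gene also used by neurons. Etv5 led that list with the longest transcripts. Nkx2-1, a factor of lung, thyroid and forebrain, stood at 4.56 ± 0.678. In the pancreas list the hormone gene Sst, which neurons also express, was highest at 19.0 ± 6.75 TPM, and Pdx1, the master factor of the pancreas, fell under the filter.

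Neuronal genes formed the largest organ-specific group outside blood, heart, liver and connective tissue, at 0.215% ± 0.0306 of transcripts, and were among the steadiest. Tubb3, the tubulin of neurons, had values of 18360, 18458, 18491 and 19985 in males 1 to 4, and 19842, 23234, 19830, 18520 and 18794 in females 1 to 5. Leaving out female 2, the fetuses lay within 18360 and 19985. Dcx, a microtubule protein of migrating neurons, varied most of the list, with 17029, 4410, 13180 and 12966 in the males, and 6161, 13178, 11265, 7283 and 7916 in the females. It was lowest in male 2 and female 1, the libraries with the 2 highest shares of ribosomal protein reads, and the part of that share in the difference was not tested. Map2 stood at 252 ± 81.2 TPM and Mapt at 242 ± 55.9, both proteins of the neuronal cytoskeleton, with longest-transcript levels of 137 and 116.

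Neural progenitor genes took 0.0925% ± 0.0188 of transcripts. Nes, the intermediate filament nestin, had 23223, 26519, 26887 and 24368 in males 1 to 4, and 26274, 36727, 29070, 26856 and 34464 in females 1 to 5, with females 2 and 5 above the rest. Of 16 progenitor genes 11 were highest in female 2, which held the highest value of 12.1% of all genes, and none was lowest there. Msi1, an RNA-binding protein of neural stem cells, stood at 275 ± 94.7 TPM (158 with the longest transcript) and Fabp7, the fatty acid carrier of radial glia, at 201 ± 23.5. Transmitter genes were lower: Gad1, which makes GABA, stood at 24.1 ± 6.41 TPM (13.3 with the longest transcript), and Slc17a6, which loads glutamate into vesicles, at 10.8 ± 3.40. Of 13 peripheral neuron and neural crest genes, Prph, the peripheral neuron filament, was highest at 35.6 ± 7.62, and of 15 brain region factors, Dlx1, of the ventral forebrain, at 90.4 ± 13.5 (30.1 with the longest transcript). Lhx2 was the highest brain region factor when the longest transcripts were used. Foxp1 led the spinal cord and motor neuron list at 69.0 ± 8.39 (33.7 with the longest transcript), and it is expressed in many other tissues. Isl1 led that list with the longest transcripts. The glial list was led by the glutamate transporters Slc1a2, at 47.8 ± 20.4 (14.1 with the longest transcript), and Slc1a3, at 39.1 ± 9.09. Slc1a3 led with the longest transcripts, and Cnp also stood above Slc1a2. Gfap, the astrocyte filament, stood at 1.92 ± 1.23 TPM and had 80.2, 144, 213 and 143 in the males, and 222, 9.63, 65.9, 130 and 35.5 in the females, lowest in female 2.

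Among the sense organs the lens varied most. Crystallins fill the fiber cells of the lens and are made as those cells differentiate. Cryaa had values of 776, 1979, 948 and 692 in males 1 to 4, and 1488, 573, 386, 997 and 319 in females 1 to 5. Cryba4 had 68.5, 373, 67.3 and 64.8 in the males, and 187, 16.6, 19.2, 105 and 21.1 in the females. Male 2 and female 1 were the 2 highest in all 11 lens genes, an arrangement found in 21.6% of all genes, and in 9 of the 11 females 2, 3 and 5 were the 3 lowest. The lens list kept its spread without males 1 and 2 and females 1 and 2, with a median SD of 0.87, against 1.01 over all 9. Retina genes were led by Lhx2, a factor of the eye field and forebrain, at 59.0 ± 15.2 TPM. Pigment cell genes were led by Pmel, of the melanosome, at 12.3 ± 3.40 (6.51 with the longest transcript), and inner ear genes by Oc90, an otoconial protein, at 17.2 ± 2.58. Kit led the pigment cell genes with the longest transcripts.

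Heart transcripts made up 0.286% ± 0.0501 of the pool, and 0.150% with the longest transcripts. Myh7, the myosin heavy chain of the embryonic ventricle in mice, had 8039, 10058, 9051 and 7311 in males 1 to 4, and 8708, 12139, 6783, 8540 and 8196 in females 1 to 5. Myh6, the atrial and adult ventricular myosin in mice, had 3410, 12977, 3450 and 3690 in the males, and 7802, 5927, 4013, 7970 and 4522 in the females. Myh6 was highest in male 2 and Myh7 in female 2, and Myh7 made up between 50.4% of their summed level in male 2 and 77.5% in male 3. These levels depend strongly on length: Myh7 stood at 933 ± 193 TPM and Myh6 at 466 ± 186, but at 108 and 70.9 with the longest transcripts. Actc1, the cardiac actin also used by embryonic skeletal muscle, stood at 594 ± 108 TPM. The median SD of the heart list of 0.48 was 0.32 without male 2. In the vessels, endothelial genes were steadier. Pecam1, the endothelial adhesion molecule, had 1972, 1757, 1867 and 1890 in males 1 to 4, and 1767, 1977, 1896, 1833 and 1728 in females 1 to 5, and the endothelial share of transcripts ran between 0.0318% and 0.0371%. Acta2, the smooth muscle actin, stood at 171 ± 24.5 TPM.

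Skeletal muscle genes were expressed in every fetus. The determination and fusion factors of the list for muscle regulators were low, led by Mef2c at 82.3 ± 35.9 TPM (24.3 with the longest transcript) and Myog at 47.2 ± 8.03, whereas several sarcomere genes exceeded 100. Mylpf, the fast regulatory light chain, had 2861, 8120, 3771 and 2924 in males 1 to 4, and 5637, 1619, 1549, 3979 and 1973 in females 1 to 5. Tnnt1, the slow troponin T, had 2934, 10421, 4488 and 3602 in the males, and 6649, 2758, 2730, 5374 and 3173 in the females. Of 19 sarcomere genes 14 were highest in male 2 and 13 lowest in female 3, which held the lowest value of 7.89% of all genes, and in 10 females 2, 3 and 5 were the 3 lowest. Myh3, the embryonic myosin heavy chain, had 11454, 20344, 16198 and 11862 in the males, and 8498 in female 2, 7800 in female 3 and 8903 in female 5, with 16770 in female 1 and 15375 in female 4. It made up 80.7% ± 1.63 of the summed level of 5 skeletal myosins, with a range of 78.3% to 82.9%.

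Cartilage collagens were abundant, and other cartilage matrix genes were lower. Matn4 stood at 41.2 TPM, Acan at 8.87, Hapln1 and Matn1 at 6.55 each, Comp at 2.02 and Matn3 at 0.785. The bone matrix genes Spp1 and Ibsp stood at 3.87 and 1.71 TPM. Col2a1, the main collagen of cartilage, stood at 227 ± 30.4 TPM and had 20678, 27396, 27490 and 29492 in males 1 to 4, and 26018, 24194, 24720, 28637 and 22009 in females 1 to 5. Comp, a matrix protein of more mature cartilage, had 23.5, 225, 58.5 and 56.8 in the males, and 159, 9.63, 24.7, 72.7 and 21.1 in the females. Col2a1 ranged 1.43-fold and Comp 23.3-fold, with male 2 and female 1 highest in Comp. The range of Comp was 10.7-fold without female 2 and 3.45-fold without males 1 and 2 and females 1 and 2. Of 17 cartilage genes, 11 were highest in male 2 and in 9 females 2, 3 and 5 were the 3 lowest. Ibsp, bone sialoprotein, had 88.1, 220, 105 and 57.7 in males 1 to 4, and 194, 9.63, 6.41, 81.1 and 4.79 in females 1 to 5. Females 2, 3 and 5 lay below 10 and the other 6 fetuses above 57. Runx2, the master factor of bone, was already at 20.8 ± 4.96 TPM (10.01 with the longest transcript) and ranged 1.49-fold. Bglap, osteocalcin, fell under the filter. Of the connective tissue collagens, Col3a1 and Col1a2, the latter at 700 TPM, lay well above Col2a1, and Col1a1 was near it at 261. Col5a1, Col5a2 and Col6a1 lay below it, at 137, 110 and 64.8 TPM. Col1a2 had 51804, 46450, 50124 and 57680 in the males, and 49052, 44333, 48066, 51005 and 42169 in the females. Limb patterning genes were led by Tbx5, of the forelimb and heart, at 31.1 ± 9.28 TPM (16.1 with the longest transcript). Msx1 led them with the longest transcripts.

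**Figure D3:**
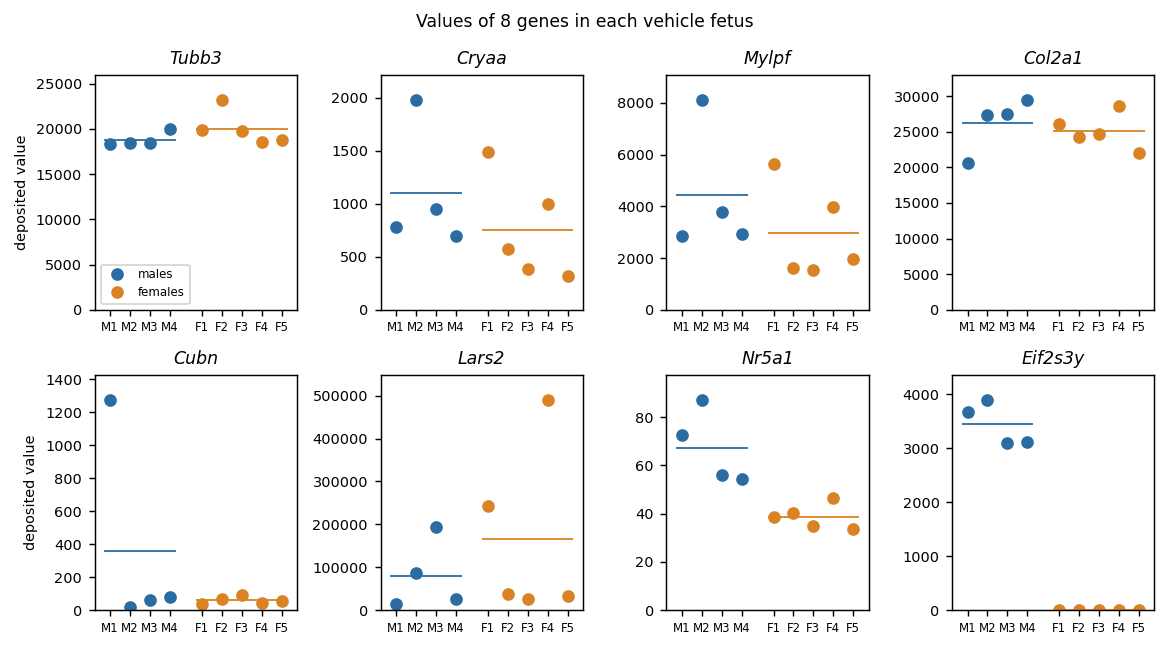
Deposited values of 8 genes in each vehicle fetus (points; males blue, females orange; lines, group means; axes start at 0). Tubb3 and Col2a1 are even across fetuses, Cryaa and Mylpf are highest in male 2 and female 1, Cubn is high in male 1 alone, Lars2 is highest in female 4, and Nr5a1 and Eif2s3y are higher in every male than in any female.

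In the surface epithelium, the basal keratin Krt5 had 2563, 4343, 2971 and 2929 in males 1 to 4, and 4006, 1856, 2132, 3196 and 2166 in females 1 to 5, so females 2, 3 and 5 were lowest here as well. Basal keratins (Krt5 and Krt14) made up 91.4% ± 2.67 of the summed level with Krt1 and Krt10, the keratins of layers above. Kidney genes ranged little as a group, between 0.0219% and 0.0262% of transcripts. Their highest member was Nphs1, nephrin of the podocyte slit, which some neurons also express, with 4390, 13108, 4984 and 5490 in the males, and 8786, 5482, 6103, 9183 and 6327 in the females. Osr1, a factor of early kidney mesenchyme, stood at 29.2 ± 3.05 TPM. Terminal kidney genes such as Umod, Slc34a1, Slc12a1 and Aqp2 were not analysed here. The endocrine list was led by Pitx1, a factor of the pituitary and hindlimb, at 25.2 ± 5.89 TPM. Pomc, the hormone precursor of the pituitary, stood at 3.23 ± 0.913 TPM. Germ cell genes were among the lowest, at 0.00158% ± 0.000186 of transcripts, with Nanos3 at 5.09 ± 1.49 and Tfap2c at 4.40 ± 1.43 TPM.

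Genes of tissues outside the fetus were low except in male 1. The trophoblast hormone gene Prl3b1 had 189, 7.09, 4.43 and 4.44 in males 1 to 4, and 6.45, 5.25, 4.58, 14.9 and 11.5 in females 1 to 5. Cubn, the endocytic receptor cubilin of the yolk sac and kidney, had 1274, 17.2, 62.9 and 78.1 in the males, and 36.5, 69.2, 89.7, 44.7 and 54.6 in the females. Rhox5, a homeobox gene of extraembryonic tissue, had 616, 71.9, 45.2 and 48.8 in the males, and 99.9, 38.5, 65.9, 46.6 and 65.2 in the females. Male 1 was the highest fetus in both trophoblast genes that passed the filter and in 4 of 5 yolk sac genes. Of the 14 trophoblast genes, 10 were not analysed here and Prl2c2 and Ascl2 fell under the filter. Yolk sac genes took 0.00690% of transcripts in male 1 and between 0.000862% and 0.00167% in the other 8. Male 1 held the highest value of 12.4% of all genes.

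The spread between fetuses was summarised as the SD of log2(value + 1). Over the 17356 genes with a mean value of at least 10 its median was 0.31, its 10th percentile 0.14 and its 90th percentile 0.65. The spread that counting alone would give had a median of 0.052, and 98.5% of genes exceeded it, so depth did not limit this measure for most genes. The widest lists were the liver at 2.36, adult globin at 1.40, yolk sac at 1.17, trophoblast at 1.17, lens at 1.01 and embryonic globin at 0.76. The steadiest were proliferation at 0.20, translation and cytoskeleton at 0.21, and brain region factors and neuronal genes at 0.25 each. Mki67, the proliferation antigen, had 32856, 24144, 31938 and 27915 in males 1 to 4, and 26177, 32809, 33926, 30474 and 32170 in females 1 to 5.

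**Figure D4:**
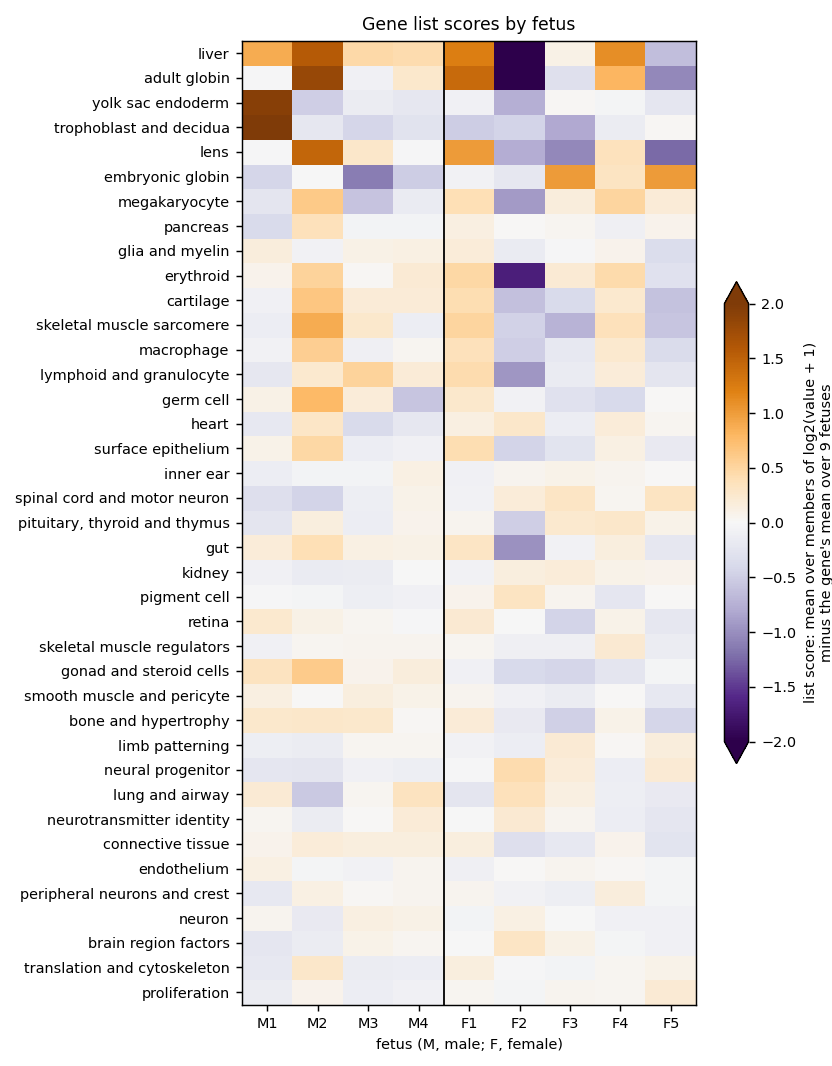
List score of each vehicle fetus (columns; males left, females right) for 39 gene lists (rows, widest spread at the top): the mean over members of log2(value + 1) minus the gene's mean over the 9 fetuses, with colours ending at 2 and -2. Female 2 is lowest in the liver, adult globin and erythroid rows, male 1 is highest in the yolk sac and trophoblast rows, and male 2 and female 1 are high in the liver, adult globin and lens rows.

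Organ lists did not all move together. Of 35 organ lists, 16 had their highest score in male 2 and 11 their lowest in female 2. Male 2 was also lowest in 6 lists and female 2 highest in 5. Over all genes, male 2 held the highest value of 30.4% and the lowest of 30.5%, and female 2 of 12.1% and 11.7%. The lists for adult globin, liver, lens, cartilage and sarcomere, and the macrophage list, were all high in male 2 and female 1 and low in females 2, 3 and 5. Neural progenitors, with scores of 0.43 in female 2, 0.22 in female 5 and 0.18 in female 3, were high in the fetuses where those lists were low, and embryonic globin was highest in females 3 and 5. The shares of ribosomal protein reads given above were highest in male 2 and female 1, and their part in this order was not tested. Without males 1 and 2 and females 1 and 2, the median SD of all genes fell to 0.21 over 5 fetuses. The widest lists were then embryonic globin at 1.03, lens at 0.87, adult globin at 0.75, trophoblast at 0.65, liver at 0.59 and sarcomere at 0.51.

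**Figure D5:**
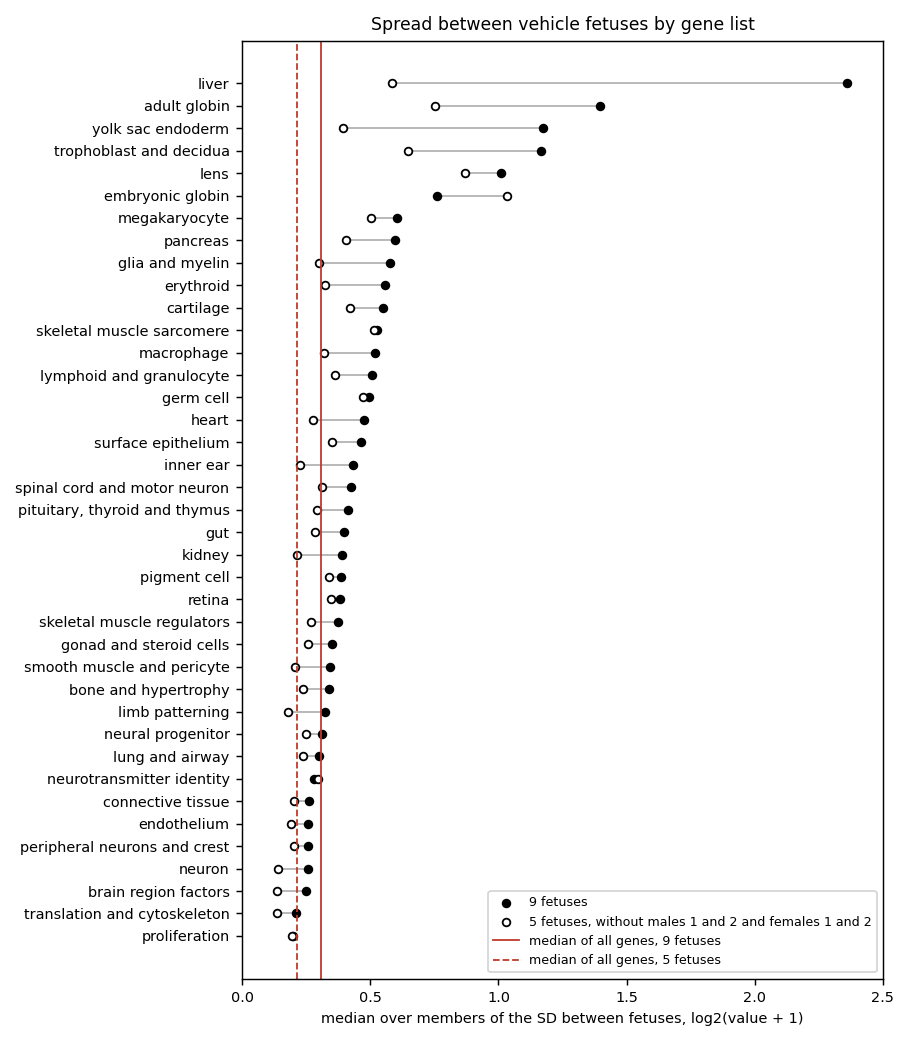
Median over the members of each list of the SD between vehicle fetuses (log2 scale), over all 9 fetuses (filled) and over the 5 left without males 1 and 2 and females 1 and 2 (open), with the median of all genes as red lines. The liver list has 0.59 over the 5 fetuses and 2.36 over all 9, and the embryonic globin list is wider among the remaining 5, at 1.03 against 0.76.

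Single genes showed the same pattern. The widest and steadiest genes were sought among 9743 genes with a mean value of at least 500 and an established symbol. Gm numbers, Rik names, pseudogenes, LOC and accession names and mitochondrially encoded genes were left out. The 20 with the widest spread comprised the Y-linked Eif2s3y and Ddx3y and 18 genes of secreted liver proteins, all 18 lowest in female 2. They included the 3 fibrinogen chains Fga, Fgb and Fgg, the apolipoproteins Apoa1, Apoa2 and Apob, prothrombin (F2) and plasminogen (Plg). Fgg fell to 0.875 in female 2, the value of 1 read, and reached 1071 in male 2. Without the 4 libraries, 5 of the 20 widest genes were the same (Eif2s3y, Ddx3y, Ahsg, Kng1 and Serpina6), and the embryonic globins Hbb-bh1 and Hba-x and the adult globins Hbb-bs and Hbb-bt were among the others. Lars2, the mitochondrial leucyl-tRNA synthetase, was the fourth widest without them, with an SD of 1.96. Lars2 had 13914, 86238, 192609 and 25998 in males 1 to 4, and 241995, 38548, 25018, 489832 and 33398 in females 1 to 5, and took up to 1.39% of the reads of a library. Its 3 highest fetuses were female 4, female 1 and male 3. Mtrnr2l7, also among the 20 widest without the 4 libraries, had the same 3 highest, at 1805, 1504 and 1276. Whether all reads counted for Lars2 came from its own transcript was not tested. At the other end, Etfdh, of mitochondrial electron transfer, had 1662, 1637, 1590 and 1614 in the males, and 1639, 1624, 1652, 1588 and 1639 in the females. The other 9 steadiest genes (Parn, Ttl, Clcn7, Ilrun, Mios, Cxcl12, Ptpra, Ifnar1 and Armcx3) had SDs of at most 0.046, and none was a list member. Igf2, the main fetal growth factor, had 79884, 97134, 62643 and 92075 in males 1 to 4, and 97270, 80096, 54658, 91118 and 75220 in females 1 to 5, at 1419 ± 224 TPM.

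Pairs of an early and a late gene gave shares within a fetus that do not depend on the scaling of the library. Of 13 pairs, early genes made up over 90% in 4: pyruvate kinase (Pkm against Pklr, 99.4% ± 0.215), cytochrome oxidase 7a (Cox7a2 against the muscle form Cox7a1, 97.5% ± 0.594), the NMDA receptor (Grin2b against Grin2a, median 96.5%) and the keratins above. The NMDA receptor share was 79.4% with the longest transcripts. Slow troponin I (Tnni1 against the fast Tnni2) made up 89.5% ± 4.24 and cardiac actin (Actc1 against Acta1) 86.4% ± 1.95. The chloride importer Slc12a2 made up 64.4% ± 4.85 of its sum with the neuronal exporter Slc12a5. Nephron progenitor genes (Six2 and Cited1 against Nphs1) made up 47.4% ± 4.91. The globin shares stood apart from the rest, with SDs of 12.9 and 23.9 percentage points, ahead of the cardiac myosins at 9.13. In the liver, troponin, pyruvate kinase and both globin pairs the early share was highest in female 2. The keratin pair went the other way, with its lowest early share, 87.0%, in female 2. The remaining pairs had neither extreme there.

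Male and female fetuses were compared over all 17356 genes with limma on log2(value + 1), with Benjamini-Hochberg adjustment. With limma 7 genes, 0.0403% of those tested, had an adjusted p below 0.05. DESeq2 called 22 genes, 14 of them higher in males, and edgeR called 6. Eif2s3y, Kdm5d, Ddx3y and Uty, genes of the Y chromosome, were higher in males. Eif2s3x, the X-linked copy of Eif2s3y that escapes X inactivation in mice, Gm26992 and Rpl36a-ps1, a pseudogene whose reads may be shared with its parent gene, were lower. Eif2s3y had 3673, 3894, 3103 and 3122 in males 1 to 4, and 1.07, 5.25, 2.75, 1.86 and 2.87 in females 1 to 5, and the labelled sex and these values did not conflict in any fetus. Eif2s3x had 7406, 6193, 6903 and 6725 in the males, and 10662, 11730, 11551, 11375 and 12245 in the females, which is -0.76 ± 0.094 on the log2 scale (SE), with an adjusted p of 0.0267 by limma. That call was lost when any fetus other than male 2 was left out, with limma adjusted p between 0.0582 and 0.196. Rpl36a-ps1 was at 0 in all 4 males and between 11.9 and 72.0 in the females, and was not called by edgeR (adjusted p = 0.227). Kdm5d, Uty and Ddx3y had reads in the females too, where Kdm5d ran between 190 and 221.

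No list member was called among 419 tested, and edgeR and DESeq2 also called none. With limma 36 members, or 8.59%, had an unadjusted p below 0.05, as did 558 of all genes, or 3.22%, and 2370 of all genes when male 2 was left out. The same count of members was 36 with edgeR and 43 with DESeq2. The gonad list is given here because the gonads begin to differ between the sexes at this stage. Nr5a1, the factor of steroid-producing and supporting gonad cells, had 72.4, 87.1, 55.8 and 54.2 in males 1 to 4, and 38.7, 40.3, 34.8, 46.6 and 33.5 in females 1 to 5. Amh, the hormone of the fetal testis, had 23.5, 81.0, 26.6 and 40.8 in the males, and 22.6, 14.9, 12.8, 11.2 and 9.58 in the females. Neither gene overlapped between the sexes, with male 2 highest in both and a margin for Amh of 23.5 in the lowest male and 22.6 in the highest female. Both were named for their small p, and every male was above every female in 0.668% of all genes. Their log2 differences were 0.76 ± 0.21 for Nr5a1 and 1.42 ± 0.39 for Amh (SE), and the limma adjusted p was 0.9996 for each, so neither passed over all genes. Cyp17a1, a steroid-producing enzyme, had 69.5, 30.4, 36.3 and 8.88 in the males, and 2.15, 2.63, 0.916, 3.73 and 17.2 in the females, with male 4 below female 5. Foxl2, an ovary factor, had a log2 difference of -0.37 ± 0.22 (SE) with overlapping values. Among germ cell genes, Ddx4 had 71.4, 70.9, 76.2 and 66.6 in males 1 to 4, and 70.9, 62.1, 42.1, 62.4 and 35.5 in females 1 to 5. The log2 difference of Ddx4 was 0.42 ± 0.23 (SE), and it was not called (limma adjusted p = 0.9996).

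Some lists lay on 1 side without any call. All 16 liver genes averaged higher in males, with a median log2 difference of 1.62, but without female 2 the median was 0.29, with 15 of 16 higher. Without males 1 and 2 and females 1 and 2 it was 0.087, with 13 of 16 higher. All 14 erythroid genes averaged higher in males with a median of 0.35, and without female 2 only 6 did, with a median of -0.034. The 4 adult globin genes had a median of 0.88 with all 4 higher in males, and without female 2 a median of 0.26 with 2 higher. The 11 lens genes were all higher in males with and without female 2, with medians of 0.78 and 0.63. The 3 embryonic globin genes averaged lower in males in both, with medians of -1.07 and -1.20. Of 19 sarcomere genes 18 averaged higher in males with and without female 2, as did 14 of 15 connective tissue genes. Only 2 of 16 neural progenitor genes and 1 of 15 proliferation genes did so, again in both. Over all genes 8142 of 17356, or 46.9%, averaged higher in males, with a median of -0.012. The 3 fetuses lowest in liver, lens and adult globin scores were females 2, 3 and 5, while female 1 was the second highest, so these list scores overlapped between the sexes.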

How the data were processed

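For every library the authors deposited a normalized signal for each gene, which the labels call normalized counts. Among the software listed by the submitters' processing notes, without role or order, are DESeq2 1.48.2, kallisto 0.50.1 and Trimmomatic 0.39; the build listed is GRCm39. In every vehicle library 100% of values were whole multiples of the value of 1 read within 1e-06, so whole reads were recovered and used for the count models. One row without a gene name, at most 0.0307% of reads, was left out, and 26 genes share all values with another gene. Levels used transcript lengths of GENCODE M21 (GRCm38, an older build than the authors'), found for 96.1% of named genes, 344 of them through a synonym. The 705 genes without a length held at most 0.841% of the reads of a library.

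Groups came from the sample titles. Genes with a mean value of at least 10 were tested with limma 3.58.1 (eBayes with trend, pseudocount 1) in R 4.3.3; edgeR 4.0.16 and DESeq2 1.42.0 on recovered reads were alternatives. The limma step was tested on simulated data. No p-value covers more than the spread among these fetuses, which may be technical. No pair of libraries of a group agreed within sampling noise (lowest chi-square per degree of freedom 23.3 over 16 pairs), so none was counted as a duplicate. The members and gene lists were chosen with earlier results of these data known. Genes named were the 20 most abundant, and the 20 most and 10 least variable with a mean of at least 500 and an established symbol. The 3 highest and the most variable member of each list (mean of at least 50) were also named. So were the pair members, the called genes, and gonad and germ cell genes by smallest p. Further list members, Pecam1, Runx2, Pomc and Foxl2 among them, and the order of females 2, 3 and 5 were picked after their values were seen. Some genes and gene pairs are not reported here. Promoter windows were matched by symbol for 6 of 6 genes.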

Additional observations from a re-analysis of the deposited data

Results flagged for a closer look

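A test for 1 value far from the rest was run on 110 results over the 9 vehicle fetuses, and 16 had such a fetus. The nominal rate of the test, 1 in 20, is no baseline for that count. Some genes were named for their wide spread in these fetuses, and list scores, list shares and list members overlap. Female 2 was the fetus apart in 4. Its scores were -1.68 for the erythroid list, where the next was -0.29, -5.10 for the liver list, where the next was -0.64, and -0.98 for the gut list, where the next was -0.21. Its Tubb3 value of 23234 was above the next, 19985. Male 1 was the fetus apart in 7. Its scores were 2.81 for trophoblast and decidua and 1.93 for yolk sac endoderm, where the next highest fetus had 0.024 and 0.025. Its transcript shares were 0.00182% for the trophoblast list, against 0.000292% in the next fetus, and 0.00690% for the yolk sac list, against 0.00167%. Its values of Cubn (1274), Prl3b1 (189) and Rhox5 (616) were above the next values of 89.7, 14.9 and 99.9.

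Male 2 was the fetus apart in 3, with Cryba4 at 373 above 187 in the next, Myh6 at 12977 above 7970, and Amh at 81.0 above 40.8. Female 4 was apart in Lars2, at 489832 above 241995. Female 3 was apart in the NMDA receptor pair, with a Grin2b share of 87.5%, where the next lowest was 93.7%.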

How the results depend on the processing

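Gene counts per level band stayed within 1.5-fold of those given under every alternative run. List shares and pair shares depended mainly on the transcript length chosen. Shares were recomputed under every alternative for the 10 organ lists with the largest shares and the trophoblast and yolk sac lists. Among the other lists the longest transcripts moved the share by more than 1.5 times for pancreas (1.69), peripheral neurons (1.64), surface epithelium (1.63), megakaryocyte (1.54) and germ cell genes (1.52). With the longest transcripts the share of transcripts was 4.85% for adult globin, 1.76% for embryonic globin, 0.333% for connective tissue, 0.150% for heart, 0.117% for neural progenitors, 0.114% for cartilage and 0.0834% for erythroid genes. With the union of exons it was 5.58% for adult globin, 2.27% for embryonic globin, 0.294% for connective tissue, 0.157% for heart, 0.266% for neurons, 0.126% for neural progenitors, 0.109% for cartilage and 0.0955% for erythroid genes. With globin and ribosomal protein genes left out of the total it was 0.716% for connective tissue, 0.339% for heart, 0.252% for neurons and 0.0922% for cartilage.

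The early share with the longest transcripts and with the union of exons was 62.8% and 54.6% for liver serum proteins, 85.5% and 91.3% for skeletal myosins, 84.3% and 83.9% for sarcomeric actins, 80.1% and 80.1% for troponin I, 79.4% and 81.9% for NMDA receptors, 94.3% and 94.4% for keratins, and 98.2% and 96.7% for pyruvate kinases. Chloride transport and the nephron pair moved with the longest transcripts to 70.1% and 40.8%, and cardiac myosins with the union of exons to 55.5%.

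The spread of a list (median SD, log2) moved most when libraries were left out. Leaving out 1 fetus at a time gave 0.73 to 2.52 for liver (lowest without female 2), 0.32 to 0.60 for erythroid (lowest without female 2), 0.32 to 0.50 for heart (lowest without male 2), and, lowest without male 1, 0.51 to 1.24 for trophoblast and 0.74 to 1.25 for yolk sac. Without males 1 and 2 and females 1 and 2 it was 0.14 for neurons, 0.30 for glia, 0.14 for brain region factors, 0.22 for inner ear, 0.27 for heart, 0.21 for smooth muscle, 0.75 for adult globin, 0.32 for erythroid, 0.32 for macrophages, 0.18 for limb patterning, 0.59 for liver, 0.21 for kidney, 0.65 for trophoblast, 0.39 for yolk sac and 0.13 for translation and cytoskeleton. As a median absolute deviation it was 0.35 for erythroid, 0.31 for macrophages, 0.19 for limb patterning, 0.95 for liver, 0.19 for lung, 0.39 for pancreas, 0.63 for trophoblast and 0.72 for yolk sac. Pooled within sex it was 0.27 for spinal cord, and with a mean value of at least 50 it was 1.13 for lymphoid cells and granulocytes. The cause of these moves was not tested beyond the libraries named.

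Male against female, DESeq2 called 22 genes, edgeR 6 and limma 7. Replicate numbers did not pair the fetuses: the 4 pairs of the same number had correlations of -0.36, -0.46, 0.25 and -0.15 of their deviations, and 0 of 4 males matched best with their own number. A fit with the replicate number as a block, in which female 5 has no partner, called 4 genes, all higher in males. Leaving out 1 fetus at a time gave 6 to 9 calls. Genes under a mean value of 10 were not compared. The ranges and the male and female list medians without female 2, or without the 4 libraries, were chosen after seeing the data.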
